A study of Mus musculus with 6 samples.

Results

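Interferon-stimulated genes and the genes of the MHC class I pathway were followed in mouse splenic CD4 T cells that had been activated with PMA and ionomycin, in the presence or absence of vasoactive intestinal peptide (VIP). The 40 listed genes were found on the arrays by gene name, and 39 of them were matched among 28090 genes on the array. They fell into 27 type I effectors, 4 interferon-gamma GTPases and 8 antigen processing genes. The remaining listed gene, Irgm1, is carried by the arrays under its older name Irgm and is reported beside the GTPases. The brightest probe of a gene stood for it, and all 39 passed the filter on dim probes, so that 22731 genes in all were tested.

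The VIP-treated cells were C57BL/6J CD4 T cells activated with PMA, a phorbol ester that turns on protein kinase C, and ionomycin, a calcium ionophore, with VIP, a neuropeptide released by nerves and lymphocytes. They were compared with C57BL/6J CD4 T cells that received PMA and ionomycin without VIP. All cells therefore carried the activating stimulus, and no unactivated cells were analysed here. Total RNA of both groups was hybridised together on 6 two-colour arrays, 1 for each biological replicate, and 3 arrays carried VIP in Cy5 while the other 3 carried it in Cy3. Each sample pooled 5 to 10 spleens of mice of both sexes aged 6 to 32 weeks, and cells were taken with anti-CD4 magnetic beads. How much VIP was added, and for how long, is not stated in the labels. In such bulk RNA, fewer cells of a type and less RNA per cell cannot be told apart.

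Type I interferons signal through Ifnar1 and Ifnar2 to the kinases Jak1 and Tyk2, and on to a complex that holds Irf9. That complex binds the interferon-stimulated response element (ISRE) and turns on antiviral effectors. Interferon-gamma signals through Ifngr1 and Ifngr2 to factors that bind gamma-activated sites (GAS) and induce GTPases and the genes that load peptides on MHC class I. T cells both make interferon-gamma when activated and respond to interferons. The comparison asked how VIP altered transcripts of the activated cells, here those of this programme.

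The sequences that the arrays used to read Samhd1, the only member that passed the test, and the MHC class I heavy chains H2-K1 and H2-D1 are shown first, because class I genes are near copies of each other. The probes shown have at least 1 reading frame free of stop codons. Capitals mark the longest run that a probe shared with an array probe of another gene, searched for runs of at least 15 bases. The coordinates, on mm9, are the ones the array files list.
Samhd1 (chr2:156930644-156931997, minus strand): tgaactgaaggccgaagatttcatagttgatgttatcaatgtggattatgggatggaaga
H2-K1, first probe (chr17:34136288-34136347, minus strand): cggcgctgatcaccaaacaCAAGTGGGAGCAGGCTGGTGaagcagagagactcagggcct
H2-K1, second probe (chr17:34136478-34136724, minus strand): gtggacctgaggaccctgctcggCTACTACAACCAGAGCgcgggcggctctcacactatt
H2-D1 (chr17:35403132-35403191, plus strand): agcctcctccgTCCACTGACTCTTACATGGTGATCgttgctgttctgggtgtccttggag
The H2-D1 run of 24 bases also occurred in a probe of H2-Q2, and the H2-K1 runs of 20 and 16 bases in probes of H2-Q10 and H2-Bl. The Samhd1 probe shared no run of 15 bases with a probe of another gene. Its 60 bases were placed over 1354 bases of the genome, so the probe is not contiguous there. The H2-K1 probes shown are the dimmer ones. Its brightest probe, which gives the H2-K1 value below, and the second tested H2-D1 probe shared no such run. The search covered array probes only and not whole class I transcripts, so it cannot show that a probe reads a single gene. The H2-D1 value below comes from the probe shown, and it is uncertain as the value of a single gene. Whether a probe lies in an exon or an untranslated region was not analysed here.

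Among the 39 members, 1 was higher with VIP, none was lower and 38 did not pass the test (limma, Benjamini-Hochberg adjusted p under 0.05 over all genes tested). This is 2.56% of the members, against 2.13% of all genes tested, 1.6% higher and 0.528% lower. The share of members called was thus close to that of all genes. Without adjustment, 6 members had p under 0.05, of which 5 were higher and 1 was lower. That is 15.4% of the members, near the 12.9% of all genes with such a p. The log2 ratios of VIP over untreated were small. They ranged from -0.09 for Isg20 to 0.33 for Usp18, with a median of 0.02 over the members and -0.000492 over all genes, and 37 of the 39 members, or 94.9%, lay within 0.2 of zero, as did 96.2% of all genes. For 32 members the 95% interval of the log2 ratio lay wholly within 0.3 of zero, and for 38 within 0.4.

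**Figure D1:**
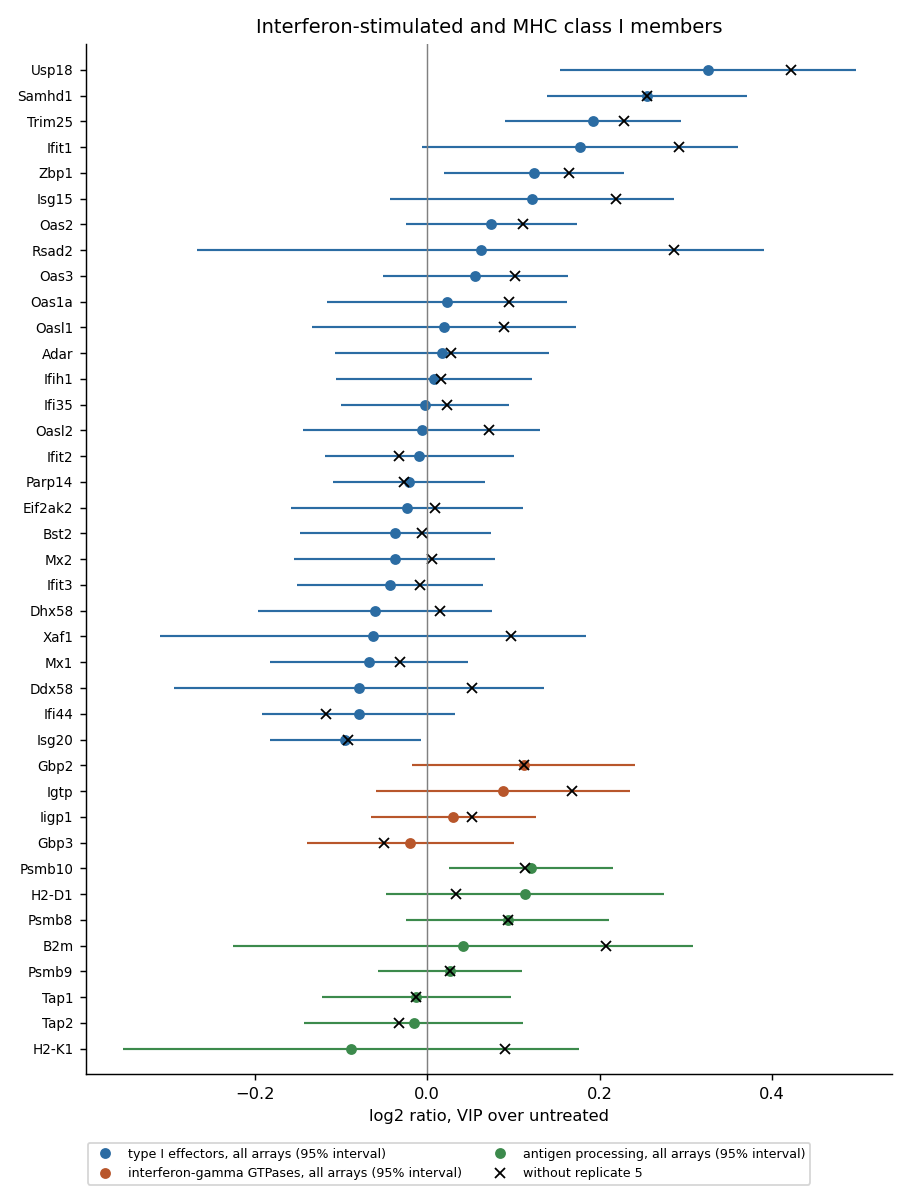
Log2 ratio of VIP over untreated for each of the 39 members (points, with 95% intervals as lines), ordered by class and size, and the same ratio fitted without replicate 5 (crosses). Usp18 has the highest ratio at 0.33 and Isg20 the lowest at -0.09, and the crosses of Rsad2, B2m and Ifit1 lie far right of their points.

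The array of replicate 5 stood apart from the other arrays, and the counts of called members are given with and without it. Outlier flags removed 13.5% of its spots, against 0.574% to 4.44% on the other arrays. The Y-linked transcripts Ddx3y and Eif2s3y had log2 ratios as measured of 4.08 and 4.18 on it, against -0.10 to 0.39 and -0.15 to 0.28 on the others. Xist, transcribed from the inactive X chromosome, had -3.29 on it and -0.34 to 0.46 on the others. The VIP and untreated RNAs of that array thus differed in sex-linked transcripts, which the labels' account of one biological replicate per array does not mention. The part of this in the results was not tested. On each of the 3 slides VIP was in Cy5 at position 2 and in Cy3 at position 4, so dye orientation and position cannot be told apart. Between 56.9% and 99.9% of the spots of an array and channel were well above background, and precision is limited by the number of arrays. The T cell transcripts Cd3d and Lck were bright, with mean log2 intensities of 14.8 and 15.2, whereas the tested Cd4 probe was dim at 8.06. Among markers of other cells, Cd74, Lyz2, Hbb-b1 and Cd8b1 had 14.2, 13.5, 12.5 and 12.3, while Cd79a and Itgam had 7.04 and 6.82.

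The type I effectors are the antiviral genes proper: RNA sensors, nucleases, translation blockers and their regulators. Of 27 tested, Samhd1 was higher, none was lower and 26 did not pass, and 13 had positive and 14 negative ratios, with a median of -0.0024. Samhd1 encodes a dNTP triphosphohydrolase that limits reverse transcription of retroviruses. Its log2 intensity was 11.96, 13.17 and 13.68 in VIP-treated cells, against 11.57, 12.98 and 13.44 in untreated cells (lowest, median and highest of 5 arrays). With the dye effect removed, the log2 ratios were 0.21, 0.12, 0.30, 0.32 and 0.32 in replicates 1, 2, 3, 4 and 6. VIP-treated cells were thus higher on each of the 5 arrays, although the ranges of the levels overlapped between arrays. Samhd1 rose 1.19-fold with VIP (log2 ratio 0.25 with an SE of 0.05 on 5 arrays, limma adjusted p = 0.0388). Its spot on replicate 5 carried an outlier flag and was left out, so the call does not use that array. With flagged spots kept, the log2 ratio was 0.19 and the adjusted p 0.237. A second, dimmer Samhd1 probe had a log2 ratio of 0.15 ± 0.06. Over 17 alternative settings the log2 ratio of Samhd1 stayed between 0.19 and 0.31, while its adjusted p ranged from 0.0123 to 0.608 and passed the threshold in 5.

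Usp18, the protease that removes Isg15 from proteins and dampens signalling at the type I interferon receptor, had the highest ratio of the members. Its log2 intensity was 8.11, 10.39 and 10.73 in VIP-treated cells, against 7.83, 9.85 and 10.36 in untreated cells (lowest, median and highest of 6 arrays). The dye-corrected log2 ratios in replicates 1 to 6 were 0.51, 0.44, 0.53, 0.14, -0.06 and 0.40. Replicate 5 alone was below zero. The fitted log2 ratio was 0.33 ± 0.08 (SE, n = 6 arrays, 95% interval 0.15 to 0.50, limma adjusted p = 0.0671), which did not pass.

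Trim25, the ubiquitin ligase that activates the RNA sensor Ddx58 (RIG-I), had log2 intensities of 12.41, 12.91 and 14.27 with VIP, against 12.34, 12.73 and 14.08 without it. Its dye-corrected log2 ratios were 0.22, 0.25, 0.31, 0.20, 0.05 and 0.13 in replicates 1 to 6, above zero on 6 of 6 arrays and lowest on replicate 5. The fitted ratio of 0.19 ± 0.05 did not pass (SE, n = 6 arrays, limma adjusted p = 0.0687). A second Trim25 probe gave 0.28 ± 0.05.

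**Figure D2:**
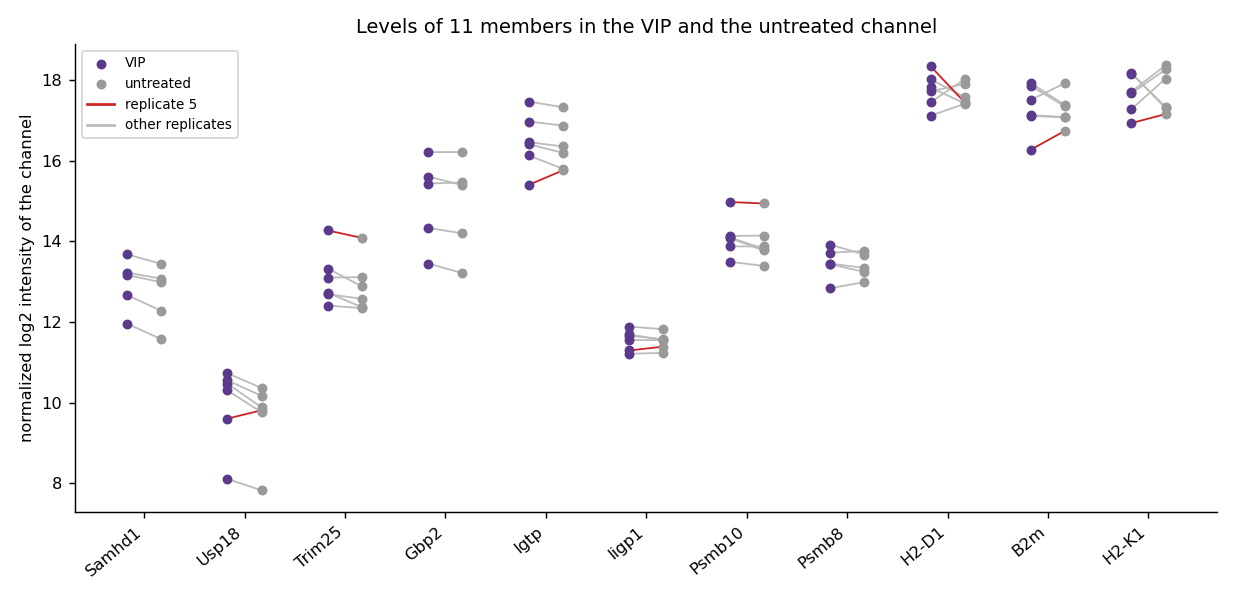
Normalized log2 intensity of 11 members in the VIP channel (left point of each pair) and the untreated channel (right point), with a line for each array and replicate 5 in red. For Samhd1, Usp18 and Gbp2 the levels differ more between arrays than between the 2 channels of an array, and the line of replicate 5 for Usp18 runs opposite to the others.

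The other type I effectors did not pass, and their ratios lay on both sides of zero. Isg15, the ubiquitin-like modifier, had a log2 ratio of 0.12, and Ifit1, which binds uncapped viral RNA, had 0.18. Ifit2 and Ifit3, of the same family, had -0.01 and -0.04. The oligoadenylate synthetases Oas1a, Oas2 and Oas3, which activate RNase L, lay between 0.02 and 0.07. The dynamin-like GTPases Mx1 and Mx2 had -0.07 and -0.04. The RNA sensors Ddx58, Ifih1 (MDA5) and Dhx58 (LGP2) had -0.08, 0.01 and -0.06. Zbp1, a sensor of Z-form nucleic acid, had 0.12 ± 0.05 and was higher on 5 of 6 arrays, but its limma adjusted p was 0.288. Isg20, a 3′ to 5′ exonuclease, had -0.09 ± 0.04 with a limma adjusted p of 0.343. A second Isg20 probe gave -0.15 ± 0.04. With the brightest probe, the dye-corrected ratio was below zero on 6 of 6 arrays. As measured, it was 0.16, 0.03 and 0.08 on replicates 1, 3 and 5, and -0.30, -0.29 and -0.26 on replicates 2, 4 and 6. The least precise was Rsad2 (viperin), at 0.06 ± 0.15, with dye-corrected ratios from -0.84 on replicate 5 to 0.66 on replicate 1. The dimmer Rsad2 probes, well above background on every array, gave 0.01 ± 0.06 and 0.01 ± 0.05, so the wide spread is that of the brightest probe. Mx1, Oas2, Oas3 and Ifi44 were not well above background on every array. Over the 17 alternatives Mx1 ran from -0.21 to -0.02 and Ifi44 from -0.23 to -0.03, and both kept their sign, as did Oas3. Oasl2, which was well above background on every array, kept its sign in 12. Oas2 changed sign, to -0.04, without the offset of 50 added to all intensities, and was -0.03 with the scanner's own log ratios and -0.06 with median centring.

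Type I effectors were low as a class on replicate 5. Their median log2 ratio as measured on the 3 arrays with VIP in Cy5 was 0.11 on replicate 1, 0.04 on replicate 3 and -0.25 on replicate 5. With VIP in Cy3 it was 0.11, 0.04 and 0.12 on replicates 2, 4 and 6. The median of all genes lay between -0.01 and 0.01 on each array. After the dye effect of each gene was removed, 4 of 26 effectors were above zero on replicate 5, against 13 to 22 of 27 on the others. Because the fit gives both dye orientations the same mean, this removal moves the values of all 6 arrays, in opposite directions in the 2 orientations. For Ifit1 it raised replicates 1, 3 and 5 and lowered replicates 2, 4 and 6. The counts on the other arrays carry these shifts as well. The largest drops as measured on replicate 5 were those of Rsad2 at -0.96, Ddx58 at -0.80 and Xaf1 at -0.80, whereas Trim25 had 0.18. These values come from the brightest probe of each gene.

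**Figure D3:**
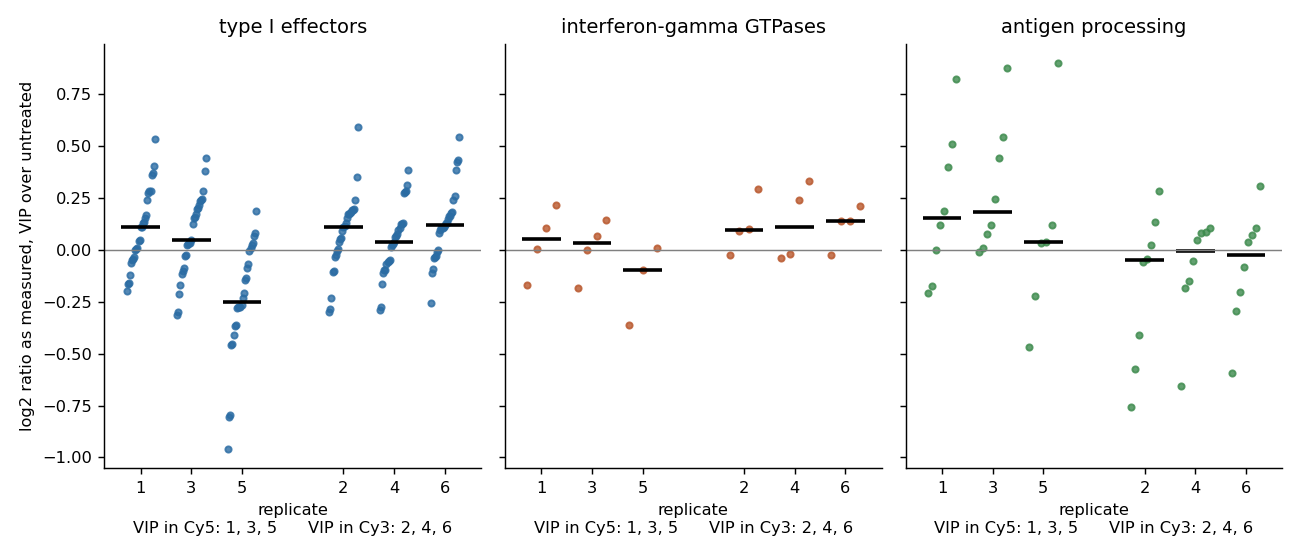
Log2 ratio of VIP over untreated as measured, before removal of the dye effect, for each member on each array, by class; bars are medians and the arrays are ordered by dye orientation. The median of the type I effectors is -0.25 on replicate 5 and 0.04 to 0.12 on the other arrays, and the antigen processing genes are spread in opposite directions in the 2 orientations.

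Without replicate 5, 6 type I effectors were higher and none was lower, with 20 of 27 ratios above zero and a median of 0.05. That is 22.2% of the effectors. In that fit 3.63% of all genes were called and 2.52% were called higher, with a median of 0.00341. The 6 were Usp18 at a log2 ratio of 0.42 ± 0.05 (limma adjusted p = 0.000612), Ifit1 at 0.29 ± 0.05 (adjusted p = 0.00341), Rsad2 at 0.29 ± 0.05 (adjusted p = 0.00875), Samhd1 at 0.25 ± 0.05 (adjusted p = 0.0123), Trim25 at 0.23 ± 0.05 (adjusted p = 0.0157) and Isg15 at 0.22 ± 0.05 (adjusted p = 0.0243). In fold terms they lay between 1.16 and 1.34. Each rests on the brightest probe of its gene, and the dimmer probes were not fitted without replicate 5. With all arrays, the dimmer Rsad2 probes were near zero, at 0.01 ± 0.06 and 0.01 ± 0.05. The leaving out of each replicate was planned, but replicate 5 was singled out after its values were known. With any of replicates 1, 2, 3, 4 or 6 left out instead, no member was called by limma, and 4 or 5 members had p under 0.05 without adjustment, which is 10.3% to 12.8% of the members against 10.4% to 11.5% of all genes. Without replicate 5 these shares were 33.3% and 15.7%.

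The interferon-gamma GTPases act on the vacuoles of intracellular pathogens. None of the 4 matched passed the test in either direction, also at an unadjusted p under 0.05, and their median log2 ratio was 0.06. Gbp2, a guanylate-binding protein, had log2 intensities of 13.45, 15.43 and 16.21 with VIP, against 13.21, 15.39 and 16.21 without it (lowest, median and highest of 5 arrays). Its dye-corrected log2 ratios were 0.22, -0.03, 0.00, 0.24 and 0.13 in replicates 1, 2, 3, 4 and 6, and replicate 5 was left out because of a flag. The fitted value was 0.11 ± 0.06 (SE, n = 5 arrays, limma adjusted p = 0.473).

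Igtp (Irgm3), an immunity-related GTPase, had log2 intensities of 15.40, 16.43 and 17.46 with VIP, against 15.76, 16.27 and 17.32 without it. Its dye-corrected ratios were 0.23, -0.03, 0.27, 0.20, -0.24 and 0.09 in replicates 1 to 6, lowest on replicate 5, and the fitted value was 0.09 ± 0.07 (SE, n = 6 arrays, limma adjusted p = 0.659). Without replicate 5 it was 0.17 ± 0.05 (limma adjusted p = 0.0894). Iigp1 (Irga6), of the same family, was at 11.21, 11.61 and 11.89 with VIP and at 11.23, 11.55 and 11.82 without it. Its dye-corrected ratios in replicates 1 to 6 were 0.04, 0.05, 0.11, -0.06, -0.06 and 0.10. The fitted value was 0.03 ± 0.04 (SE, n = 6 arrays, limma adjusted p = 0.852). Gbp3 had -0.02, and Irgm1, read through its older name, had 0.01 ± 0.06 (SE, n = 5 arrays, limma adjusted p = 0.963). Without replicate 5 none of the 4 was called by limma, and their median was 0.08.

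The antigen processing members make and load the peptides that MHC class I shows to CD8 T cells. None of the 8 passed in either direction by limma, 1 had p under 0.05 without adjustment, and the median log2 ratio was 0.03. That 1 was Psmb10, a catalytic subunit of the immunoproteasome. Its log2 intensity was 13.49, 14.09 and 14.97 with VIP, against 13.39, 13.84 and 14.94 without it. The dye-corrected ratios were 0.11, 0.17, 0.10, -0.01, 0.15 and 0.19 in replicates 1 to 6, and the fitted value was 0.12 ± 0.04 (SE, n = 6 arrays, limma adjusted p = 0.248). Here replicate 5 lay among the other arrays.

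Psmb8, another immunoproteasome subunit, had log2 intensities of 12.84, 13.45 and 13.92 with VIP, against 12.99, 13.34 and 13.76 without it (5 arrays, replicate 5 flagged). Its dye-corrected ratios were 0.06, 0.08, 0.12, -0.03 and 0.23 in replicates 1, 2, 3, 4 and 6. The fitted value of 0.09 ± 0.05 did not pass (limma adjusted p = 0.523). The third subunit, Psmb9, had a fitted value of 0.03 ± 0.04. After the dye effect was removed it was the most even member, with 0.01 to 0.04 on 6 of 6 arrays. As measured, Psmb9 was at 0.12 on each of replicates 1, 3 and 5, and at -0.06, -0.06 and -0.08 on replicates 2, 4 and 6. Tap1 and Tap2, the peptide transporter of the endoplasmic reticulum, had -0.01 and -0.02.

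B2m, the light chain of MHC class I, had log2 intensities of 16.27, 17.32 and 17.91 with VIP, against 16.74, 17.21 and 17.92 without it. Its dye-corrected ratios were 0.36, -0.26, 0.39, 0.20, -0.62 and 0.19 in replicates 1 to 6, lowest on replicate 5. The fitted value was 0.04 ± 0.12 (SE, n = 6 arrays, limma adjusted p = 0.938), and without replicate 5 it was 0.21 ± 0.07 (adjusted p = 0.115). The heavy chain H2-K1 was at 16.93, 17.68 and 18.17 with VIP, against 17.15, 17.68 and 18.36 without it. Its dye-corrected ratios were 0.24, -0.18, 0.30, -0.08, -0.80 and -0.01. The fitted value was -0.09 ± 0.12 (SE, n = 6 arrays, limma adjusted p = 0.842). Without replicate 5 the sign turned, to 0.09 ± 0.05 (adjusted p = 0.388).

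The other heavy chain, H2-D1, was at 17.11, 17.76 and 18.34 with VIP, against 17.41, 17.51 and 18.02 without it. Its dye-corrected ratios were -0.07, -0.11, -0.02, 0.28, 0.43 and 0.17 in replicates 1 to 6. The fitted value was 0.11 ± 0.07 (SE, n = 6 arrays, limma adjusted p = 0.583). Without replicate 5 it was 0.03 ± 0.06 (adjusted p = 0.849). H2-K1 and B2m were at their lowest dye-corrected ratios on replicate 5, whereas H2-D1 was at its highest there. The second H2-D1 probe, saturated on no array, had a fitted log2 ratio of 0.13 ± 0.07. The VIP spot of the H2-D1 probe used was saturated on replicate 5, and 1 of the 10 H2-K1 spots was saturated in the VIP channel of replicate 3. The effect of saturation on the H2-D1 and H2-K1 ratios was not tested. Their dye effects, log2 shifts towards Cy5 that do not depend on VIP, were 0.58 for H2-K1 and 0.46 for H2-D1, larger than the fitted ratio of any member.

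The probes of a gene did not always tell the same. Of 16 members with more than 1 tested probe, 9 had all probes on the same side of zero and 7 had probes on both sides. The 4 H2-K1 probes had log2 ratios of -0.09, -0.08, 0.12 and 0.03 from the brightest to the dimmest, the last 2 being the sequences shown above. The 3 B2m probes had 0.04, 0.10 and 0.22, and the 2 tested H2-D1 probes 0.11 and 0.13. Outlier flags removed some values, so the probes of a gene do not all rest on the same arrays. The dimmest B2m probe was flagged on 2 arrays and the brightest on none.

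**Figure D4:**
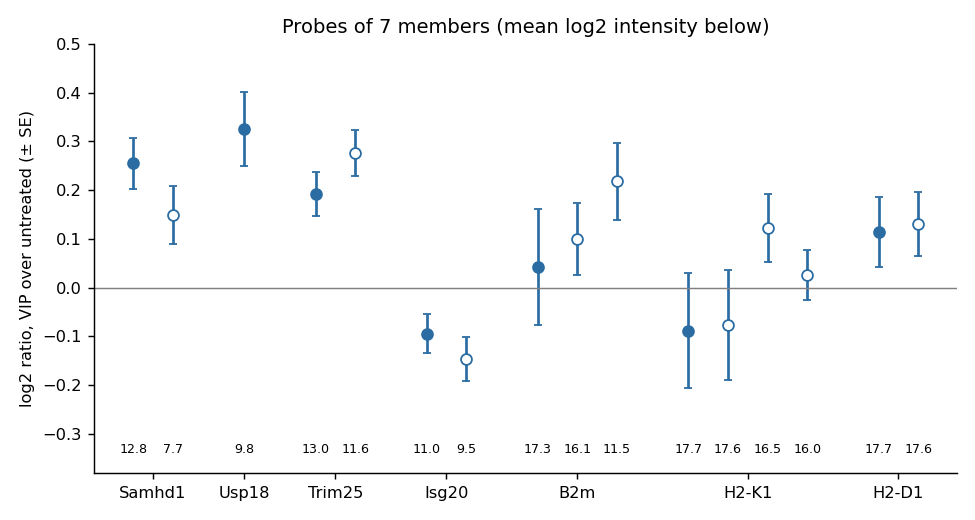
Log2 ratio of VIP over untreated (± SE) for each tested probe of 7 members, ordered within a gene by brightness, with the mean log2 intensity printed below; filled points are the brightest probe of each gene, which represents it. The 2 Trim25 probes lie at 0.19 and 0.28 and the 2 Samhd1 probes at 0.25 and 0.15, whereas the 4 H2-K1 probes lie on both sides of zero.

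The promoters of the members were searched for both elements, from 250 bases before to 50 after each gene's start in RefSeq GRCm38.p6. Of the 40 listed genes, 31 had a promoter in the table. The ISRE, searched on both strands as GAAA, any 2 bases and GAAA, was found in 15 of these (48.4%), against 3.99% of the 27025 genes in the table. It was in all 4 GTPase promoters in the table (Gbp2, Gbp3, Igtp and Irgm1), 10 of 20 type I effector promoters and 1 of 7 antigen processing promoters. The GAS motif, searched as TTCNNNGAA, which is its own reverse complement, was in 10 of the 31 (32.3%), against 9.55% of all genes. Both motifs were counted independently of each other, so that sites may overlap. The sites nearest to the start of some members are shown, each as 30 bases that lie before the gene's start, with the ISRE in capitals and read on the strand where it has this form. Ifit1, Isg15 and Rsad2 are 3 of the effectors called without replicate 5, and Gbp2, Igtp and B2m are members of the other classes. Of the other effectors called in that fit, Samhd1 and Trim25 had no ISRE match, and Usp18 had no promoter in the table.
Ifit1 (chr19:34640794-34640823, minus strand): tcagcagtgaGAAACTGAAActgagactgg
Isg15 (chr4:156200865-156200894, minus strand): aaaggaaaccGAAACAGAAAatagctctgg
Rsad2 (chr12:26456553-26456582, plus strand): tctgttttctGAAAATGAAAgttggaccag
Gbp2 (chr3:142620594-142620623, minus strand): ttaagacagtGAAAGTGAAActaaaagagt
Igtp (chr11:58199512-58199541, plus strand): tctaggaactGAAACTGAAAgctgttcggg
B2m (chr2:122147538-122147567, plus strand): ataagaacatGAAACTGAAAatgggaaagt
The motif starts 85 bases before the start of Ifit1, 66 before Isg15, 120 before Rsad2, 59 before Gbp2, 34 before Igtp and 139 before B2m, counted on the gene's strand. The median log2 ratio of VIP over untreated was 0.02 for members with an ISRE and 0.01 for those without one. A match is a description of these letters and not a measured binding site.

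Other genes of the pathway were set beside the members, from lists of receptors, signalling components and further induced genes. Over all genes, 2.13% were called and 12.9% had p under 0.05 without adjustment. The lists were chosen with earlier results known, and their shares were not tested. Of 8 receptors and kinases, Ifngr2, the signalling chain of the interferon-gamma receptor, was higher and none was lower, with a list median of 0.11. Without adjustment, 6 of the 8 had p under 0.05, 4 higher and 2 lower. The dye-corrected log2 ratios of Ifngr2 were 0.35, 0.44, 0.52, 0.25, 0.26 and 0.45 in replicates 1 to 6, so that replicate 5 lay on the same side as the others. It rose 1.30-fold (log2 ratio 0.38 with an SE of 0.05 on 6 arrays, limma adjusted p = 0.00283). Ifnar1, a chain of the type I interferon receptor, had 0.21 ± 0.05 (adjusted p = 0.0549), and Jak1, the kinase common to both receptors, had 0.29 ± 0.07 (adjusted p = 0.0621). Without replicate 5 all 3 were higher, or 37.5% of the list against 2.52% of all genes. Ifnar2, the other type I receptor chain, had 0.12 ± 0.04 (limma adjusted p = 0.222) and was called in neither fit. Jak2, the other kinase of the interferon-gamma receptor, had -0.23 ± 0.08 (limma adjusted p = 0.247), with dye-corrected ratios below zero on 6 of 6 arrays. Il10rb, a receptor chain for interleukin-10 and type III interferons, had -0.14 ± 0.05 (limma adjusted p = 0.298). Both were named after their values were seen.

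Of 12 signal transducers and factors described, 2 were higher and none was lower, with a list median of 0.03. Without adjustment, 4 of the 12 had p under 0.05, 3 higher and 1 lower. Socs1, which inhibits Jak kinases, had dye-corrected log2 ratios of 0.26, 0.21, 0.33, 0.20 and 0.49 in replicates 1, 2, 3, 4 and 6. It rose by 0.30 ± 0.06 on these 5 arrays (SE, limma adjusted p = 0.0299). Socs3, an inhibitor of cytokine receptor signalling, had dye-corrected ratios of 0.14, 0.19, 0.23, 0.27, 0.22 and 0.13 in replicates 1 to 6. It rose by 0.20 ± 0.04 (SE, n = 6 arrays, limma adjusted p = 0.0344). Both had dye-corrected ratios above zero on every array with a value. The interferon regulatory factors Irf1, Irf7 and Irf9 had 0.04, 0.03 and 0.02 and did not pass.

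Of 33 other interferon-induced genes, 3 were higher and none was lower, with a list median of 0.05. Without adjustment, 7 of the 33 had p under 0.05, 6 higher and 1 lower. Cxcl10, the chemokine ligand of Cxcr3, was the highest, with dye-corrected log2 ratios of 0.92, 0.89, 1.01, 0.56, 0.65 and 1.14 in replicates 1 to 6. Stat4, the factor that answers to interleukin-12, and Ifi27, a mitochondrial and nuclear protein, were the others, at 0.24 ± 0.04 and 0.28 ± 0.06 (SE, n = 6 arrays, limma adjusted p = 0.0229 and 0.0474). Without replicate 5, 5 of the 33 were higher, with Ly6a and Cxcl9 in addition. That is 15.2% of the list, against 2.52% of all genes called higher in that fit. Ly6a had no value on replicate 5 and kept its log2 ratio of 0.23, while its limma adjusted p moved from 0.0789 to 0.0289. Cxcl9 was named after its values were seen. Of 9 sensors and adaptors, 4 interferon genes and 18 other antigen processing genes, none passed by limma, with 0, 1 and 3 genes at an unadjusted p under 0.05, the last 3 all lower. Without replicate 5, 1 other antigen processing gene was lower, Cd1d1, which presents lipids (log2 ratio -0.23 ± 0.05, limma adjusted p = 0.0346), and the sensors and interferon genes still gave no call. Ifng itself, at a mean log2 intensity of 17.8, had a log2 ratio of 0.11 ± 0.04 and was above zero on 6 of 6 arrays (limma adjusted p = 0.263).

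**Figure D5:**
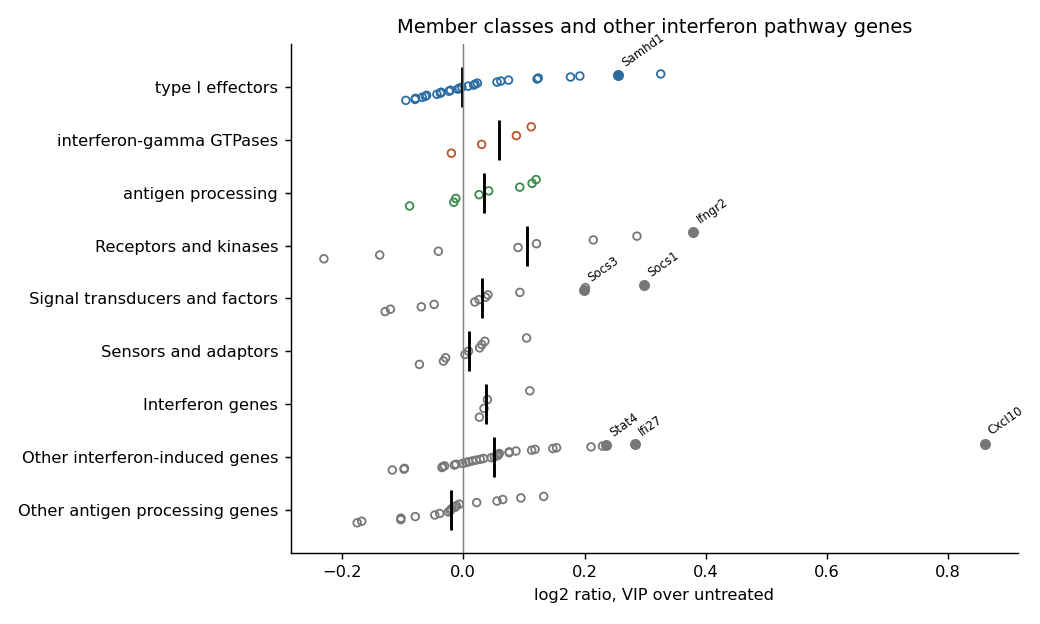
Log2 ratio of VIP over untreated for the genes of the 3 member classes and of 6 further lists of interferon pathway genes; filled points passed the test and are named, open points did not, and bars are medians. Cxcl10 lies apart at 0.86, and the list medians run from -0.02 to 0.11.

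Markers of other cells that express MHC and interferon-stimulated genes were read on the same arrays. Over all genes, 2.13% were called and 12.9% had p under 0.05 without adjustment. Of 6 MHC class II genes none passed by limma, 3 had p under 0.05 without adjustment, all higher, and the log2 ratios ran from -0.03 to 0.12. Of 6 B cell markers none passed by limma and none had p under 0.05 without adjustment, with log2 ratios from 0.01 to 0.06. Of 6 monocyte and macrophage markers Cd14 was higher, at 0.57 ± 0.07 (SE, n = 5 arrays, limma adjusted p = 0.00322), and the other 5 did not pass. Of 5 dendritic cell and 4 plasmacytoid dendritic cell markers none passed by limma or at an unadjusted p under 0.05. Of 4 NK cell markers none passed by limma, and 1, Klrd1, had p under 0.05 without adjustment (log2 ratio 0.12 ± 0.05). The 3 erythroid markers had -0.10 to -0.06, and 0.0048 to 0.065 without replicate 5. The CD8 T cell marker tested, Cd8b1, had -0.07. None of these passed by limma or at an unadjusted p under 0.05. Of 7 CD4 T cell transcripts the costimulatory receptor Cd28 was higher, at 0.28 ± 0.05 (SE, n = 6 arrays, limma adjusted p = 0.0124), and the other 6 did not pass. Without replicate 5 Cd14 and Cd28 were again the called genes of these lists. Cd14 had no value on replicate 5, so its ratio rests on the same 5 arrays in both fits. The part of these cells in the members' values was not tested.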

How the data were processed

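Per the file headers, Agilent Feature Extraction 9.5.1.1 gave spot intensity, local background and 0 or 1 quality flags for both channels, and the deposited scanner files also hold its log10 ratio of red over green. The submitters' processing notes name the same tool. The authors' series table holds log10 ratios that equal the scanner values turned to VIP over untreated (largest difference 4.5e-06), and was not used otherwise.

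Mean intensity was corrected with normexp (offset 50) and loess within each array in limma 3.58.1 under R 4.3.3, with 1639 control spots at weight 0 in loess and then left out. Spots with an outlier flag had no value. Genes well above background in the VIP channel of 3 or more arrays, or in the untreated channel of 3 or more, were tested. Oriented log2 ratios were fitted with terms for dye and VIP (lmFit and eBayes, 4 residual and 6.24 prior degrees of freedom for 6 arrays), with Benjamini-Hochberg adjustment over all genes. P-values measure the spread between the 6 arrays, called biological replicates per the labels. Opposite dye orientations correlated at -0.26 to -0.0232 and like ones at 0.221 to 0.587 before the dye effect was removed. The direction was taken from the dyes in the labels.

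The members, lists and naming rule were chosen with earlier results of these data known. The rule gave values by array for called members, the 3 of each class with the smallest p, and B2m, H2-K1 and H2-D1. Of another pathway list it named at most the 4 genes with the smallest p. Jak2, Il10rb, Irf1, Irf7, Irf9 and Cxcl9 were named outside this rule. Sequences come from the scanner files and RefSeq GRCm38.p6. The fit was tested on simulated data. A result for 1 gene of the pathway lists is not reported here, and the counts leave it out. Alternatives varied the background offset, normalization, filter, flags, probe rule, dye term, slide block, names, threshold and replicates.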

Additional observations from a re-analysis of the deposited data

How the results depend on the processing

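Relative to 364 genes higher and 120 lower in all and 1 member higher, the counts were 75, 9 and 0 without the offset, 118, 8 and 0 with median centring in place of loess, 19, 0 and 0 with the scanner's log ratios, and 163, 38 and 0 without a dye term. With flagged spots kept 74 genes were lower and 0 members higher. With 1 replicate left out they ranged from 163 to 569 higher, from 30 to 251 lower and from 0 to 6 members higher, the 6 without replicate 5. At an adjusted p under 0.1, 3 members were higher (Samhd1, Usp18 and Trim25). The share of all genes at this looser threshold is not given here, so the count cannot be read as an excess. In settings without a called member, 3 to 6 members had p under 0.05 without adjustment, or 7.69% to 15.4% of the members against 4.73% to 11.9% of all genes. No member was called lower in any of these settings. Samhd1 was not called with a fixed slide block, where Usp18 was (adjusted p = 0.0304), nor with the mean over probes, where Trim25 was (adjusted p = 0.042). The median of the antigen processing genes was 0.1212 with median centring, and ranged from -0.008478 to 0.062 with 1 replicate left out. That of the GTPases was 0.0589 as reported, 0.124 with median centring and 0.0267 to 0.0822 with 1 replicate left out. Of the 39 members, 18 kept the sign of their log2 ratio in all 17 alternatives. The cause of these shifts was not tested. Oas2, Oas3, Mx1 and Ifi44 were not well above background on every array, and their ratios carry that limit. Of these only Oas2 changed sign over the alternatives.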
